A study of Homo sapiens with 2 samples.

Results

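A group of 9 genes of DNA methylation and of the metabolism that feeds its removal was compared between a pair of human melanoma cell lines. They are the methyltransferase genes DNMT1, DNMT3A and DNMT3B, their recruiting factor UHRF1, the dioxygenase genes TET1, TET2 and TET3, and the isocitrate dehydrogenase genes IDH1 and IDH2. They were taken by gene symbol, and all 9 of 9 were found, with 19 probe sets, among the 19775 genes named on the array. IGR37 was grown from a lymph node metastasis of melanoma, and IGR39 from a primary cutaneous melanoma described as achromic. Both were cultured in DMEM with 10% serum. Total RNA of each was hybridised to 1 Affymetrix Human Genome U133 Plus 2.0 array. There are no replicates, so no test was run, no value has an error of its own, and each difference holds for these 2 cultures only.

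DNA methylation places a methyl group on cytosine, mostly where a guanine follows. DNMT3A and DNMT3B write it on unmethylated DNA, and DNMT1 copies it onto the new strand after replication, guided there by UHRF1, which binds half-methylated sites. TET enzymes oxidise the methyl group, the first step of active removal, and they need 2-oxoglutarate and iron. IDH1, in the cytosol and peroxisome, and IDH2, in the mitochondrion, make 2-oxoglutarate from isocitrate with NADPH. Loss of the oxidised base, hydroxymethylcytosine, is well known in melanoma tissue.

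IDH1 and IDH2 were each about 3-fold higher in IGR37, while no methyltransferase, UHRF1 or TET gene differed by 2-fold. IDH1 stood at a log2 level of 10.95 in IGR37 and 9.52 in IGR39, a difference of 1.43 (2.70-fold). IDH2 stood at 9.11 in IGR37 and 7.43 in IGR39, a difference of 1.67 (3.19-fold). DNMT1 was at 8.80 in IGR37 and 8.89 in IGR39, and the largest difference the other way was that of UHRF1, at 8.65 in IGR37 and 9.36 in IGR39. Differences are the log2 level in IGR37 minus that in IGR39, so 1 is 2-fold.

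A level of log2 6 in the brighter line was the minimum for a gene to be counted. Of the 9 genes, 5 reached it. IDH1 and IDH2 passed the 2-fold limit upwards in IGR37, 0 genes passed it downwards and 3 lay within it. Of all 8501 genes at this level, 11.4% passed the limit upwards and 9.5% downwards, 21% in all. Of the 6931 genes at or above log2 6 in both lines, as IDH1 and IDH2 are, 7.26% passed it upwards and 5.35% downwards. The 14792 probe sets at this level passed it in 21.4% of cases, either way. By its difference IDH2 ranked 438th and IDH1 544th from the highest of the 8501 genes.

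**Figure D1:**
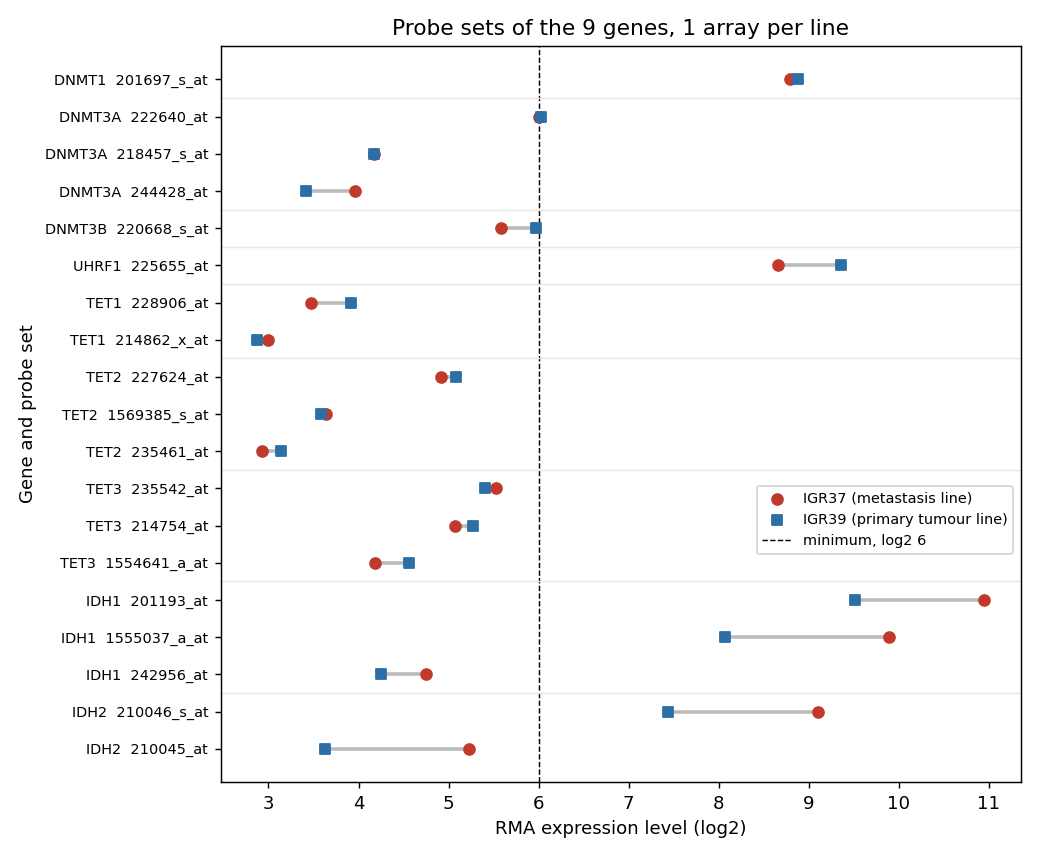
RMA expression level (log2, horizontal) of each of the 19 probe sets of the 9 genes in IGR37 (red circles) and IGR39 (blue squares), 1 array each, with the minimum of log2 6 dashed. The 5 probe sets of IDH1 and IDH2 lie to the right in IGR37, and all 8 TET probe sets lie under the minimum in both lines.

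Several yardsticks bear on array noise. The 18 spike-in controls of the hybridisation step differed by -0.14 to 0.21, and the 24 poly-A spike-ins, added before labelling, by -0.47 to 0.68. Over 3178 genes with several probe sets at the minimum, probe sets of the same gene scattered around their gene's mean difference with an SD of 0.40. The differences of IDH1 and IDH2 are larger than these control and probe set values, and those of DNMT1 and DNMT3A are smaller than the SD. Housekeeping genes, which are not fixed controls, spread further, around a median of 0.19. Of 23 measured, 4 passed the 2-fold limit upwards in IGR37 and 0 downwards, against 11.4% and 9.5% of all genes. Among these 4, GUSB, at 9.21 in IGR37 and 7.40 in IGR39, differed by 1.81, more than either IDH gene. TFRC (1.39) and RAB7A (1.38) differed by nearly as much as IDH1. None of these values covers the spread between cultures. Each array averages over a whole culture, so fewer cells with a transcript and less RNA per cell cannot be told apart. The lines also differ in lineage markers: all 7 measured melanocyte markers were above the minimum in IGR37 (8.38 to 13.05). They ranged from 3.15 to 7.57 in IGR39, where MITF reached log2 6 and the other 6 did not, although the line is labelled as melanoma. Of 8 lymphocyte and macrophage markers and 5 endothelial markers, 0 reached the minimum in either line, and of 8 fibroblast markers 4 did, of which LUM passed the 2-fold limit upwards in IGR37 and COL1A2 and FAP downwards. LUM was at 6.26 in IGR37 and 3.41 in IGR39, COL1A2 at 3.84 in IGR37 and 6.27 in IGR39, and FAP at 6.83 in IGR37 and 8.85 in IGR39. Of 5 keratinocyte markers, KRT10 alone reached the minimum, at 9.08 in IGR37 and 9.13 in IGR39. Their part in the results below was not tested.

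The maintenance genes were expressed in both lines. The single DNMT1 probe set gave 8.80 in IGR37 and 8.89 in IGR39, a difference of -0.09. UHRF1, also on a single probe set, differed by -0.70 (1.63-fold), below the 2-fold limit but outside the range of the poly-A spike-ins. Of the 8501 genes, 14.4% had a lower difference than UHRF1 and 39.9% a lower difference than DNMT1. UHRF1 therefore stands in the lower part of the distribution and DNMT1 near its middle.

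DNMT1 and UHRF1 are genes of dividing cells, so they were set beside a list of replication and proliferation genes. Its 24 members were all at the minimum, with a median difference of 0.10. Of these, 1 passed the 2-fold limit upwards in IGR37, 2 passed it downwards and 21 lay within it. The shares over all genes were 11.4% upwards and 9.5% downwards. MKI67, a protein of cycling cells, was at 7.79 in IGR37 and 9.66 in IGR39, and its 4 probe sets ranged from -1.87 to -0.51. CCNB1, the mitotic cyclin, was at 10.00 in IGR37 and 11.27 in IGR39. MCM6, a subunit of the replication helicase, was at 10.21 in IGR37 and 9.17 in IGR39. E2F1, a transcription factor of S-phase genes, was at 7.51 in IGR37 and 7.79 in IGR39. PCNA, the sliding clamp that also holds DNMT1 at the replication fork, was at 11.34 in IGR37 and 11.07 in IGR39. In the list, 13 of 24 genes were above zero, so it had no common direction, and UHRF1 lay below its median. Medians by autosome, described below, ran from -0.50 to 0.95 and were not subtracted for the genes of this list.

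The de novo methyltransferases were near the limit of what the array resolves. The brightest DNMT3A probe set was at 6.00 in IGR37 and 6.03 in IGR39. Its other probe sets stood at 4.17 in both lines and at 3.96 in IGR37 and 3.42 in IGR39. The only DNMT3B probe set was at 5.59 in IGR37 and 5.97 in IGR39, under the minimum, with a difference of -0.38. None of these 4 probe sets differed by 2-fold. RMA compresses differences between dim signals, so these values set no bound on the difference in transcript.

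None of the TET genes reached the minimum in either line. TET3 stood at 5.52 in IGR37 and 5.40 in IGR39, with further probe sets at 5.07 in IGR37 and 5.27 in IGR39 and at 4.18 in IGR37 and 4.56 in IGR39. TET2 was at 4.91 in IGR37 and 5.08 in IGR39, and its other probe sets lay between 2.93 and 3.64 in IGR37 and between 3.14 and 3.58 in IGR39. TET1 was at 3.47 in IGR37 and 3.92 in IGR39, and at 2.99 in IGR37 and 2.87 in IGR39 on a probe set that can cross-hybridise.

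The 8 TET probe sets differed by -0.44 to 0.12, with 3 positive and 5 negative. All 3 genes were thus under the minimum, and these arrays give no amounts for them.

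**Figure D2:**
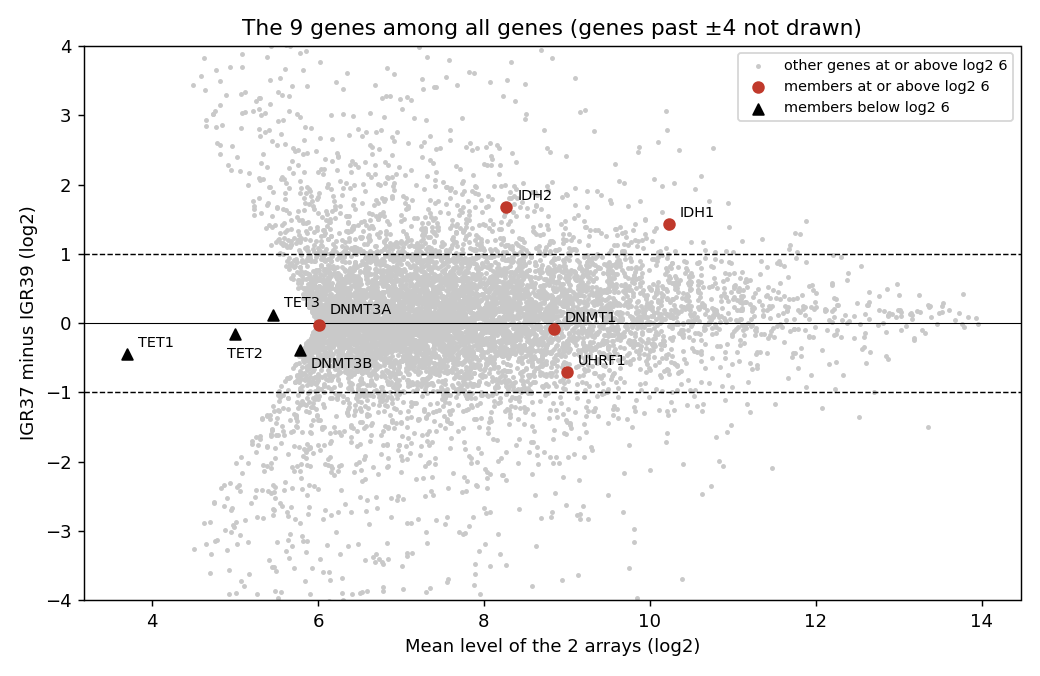
Difference between the lines (IGR37 minus IGR39, log2, vertical) against the mean level of both arrays (log2, horizontal) for all genes at or above log2 6 (grey), with members of the group in red and members below the minimum as black triangles. IDH1 (1.43) and IDH2 (1.67) lie above the upper 2-fold line, and the other 7 genes lie between the lines.

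The higher IDH signal was seen on every probe set of both genes. IDH1's second probe set stood at 9.89 in IGR37 and 8.07 in IGR39, a difference of 1.82. Another, with no accession in the annotation, was dim, at 4.75 in IGR37 and 4.25 in IGR39. IDH2's second probe set stood at 5.22 in IGR37 and 3.62 in IGR39, a difference of 1.60, and was under the minimum. The 5 probe sets thus differed by 0.49 to 1.82, all in the direction of IGR37, and the dimmest IDH1 probe set gave the smallest difference.

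The window around the IDH1 gene start is shown because, of the IDH pair, IDH1 alone has a window at its own start in the RefSeq table, and that of DNMT1 is shown beside it as the methyltransferase well above the minimum, which differed by under 0.10. Each runs from 250 bases before to 50 bases after the start. For IDH2, DNMT3B, UHRF1 and TET3 the table held windows only at starts inside the gene, and these are not shown. The sequences are from RefSeq, build GRCh38.p14, on the strand of transcription (minus strand for both), with CG pairs, the sites DNA methylation acts on, in capitals. The IDH1 window is chr2:208255022-208255321 and the DNMT1 window is chr19:10194904-10195203.
IDH1: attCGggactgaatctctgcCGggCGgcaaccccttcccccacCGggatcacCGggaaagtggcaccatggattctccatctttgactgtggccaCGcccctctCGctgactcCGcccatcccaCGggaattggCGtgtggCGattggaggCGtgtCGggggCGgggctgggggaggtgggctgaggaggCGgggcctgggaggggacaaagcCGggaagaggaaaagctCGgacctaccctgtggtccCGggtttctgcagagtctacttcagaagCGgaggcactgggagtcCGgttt
DNMT1: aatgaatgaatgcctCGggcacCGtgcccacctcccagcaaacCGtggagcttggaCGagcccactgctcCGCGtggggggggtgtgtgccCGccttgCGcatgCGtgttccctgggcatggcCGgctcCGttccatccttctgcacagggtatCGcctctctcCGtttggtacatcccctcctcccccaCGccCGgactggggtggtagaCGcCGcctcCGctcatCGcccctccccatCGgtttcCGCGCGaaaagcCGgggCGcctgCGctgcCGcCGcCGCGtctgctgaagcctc

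IDH1's window held 20 CG pairs and DNMT1's held 30. The median was 27 over the 6254 genes at the minimum with such a window. Windows of DNMT3A, TET1 and TET2 held 18, 10 and 13. TET1 and TET2 are under the minimum, and over all 24885 genes with such a window the median was 13. The E-box CACGTG, searched on both strands, was in the TET2 window but not in those of the other 4 genes with a window at the gene start. It was in 11.4% of the windows of the measured genes and in 7.40% of all windows. The E2F-type word TTTCGCGC was in the DNMT1 window on the opposite strand, and 1.23% of the windows of the measured genes held it. The words TCATGTG, TTTCCCGC and TTTGGCGC had 0 matches in the 5 windows. A match is a description of letters, and the lack of one says nothing of a factor.

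IDH1-AS1, a noncoding transcript annotated head to head with IDH1, stood at 4.01 in IGR37 and 3.99 in IGR39. It was near background in both lines.

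Both IDH genes lie on chromosomes whose median difference was above that of all genes. The median difference of the other genes at the minimum was 0.28 for chromosome 2, which holds IDH1 (574 genes), and 0.50 for chromosome 15, which holds IDH2 (297 genes), against 0.07 over all 8501 genes. Chromosome 15 ranked 3rd and chromosome 2 ranked 9th of the 22 autosomes. Relative to these medians, IDH1 was 1.16 higher and IDH2 was 1.18 higher, both above the 2-fold limit of 1. The medians of the 10 nearest genes, given below, were larger, at 0.67 for both, and were not subtracted. Of the other genes on their chromosomes, 93.4% had a smaller difference than IDH1 and 90.6% a smaller difference than IDH2. DNMT1 and UHRF1 lie on chromosome 19, whose median was 0.02, and UHRF1 was -0.72 relative to it. TET1 lies on chromosome 10, whose median of -0.50 was the lowest of the autosomes, but TET1 itself is too dim to be set against it. Gene dosage was not measured, so its part in these values was not tested. Medians were subtracted for the members only, and not for the genes of the lists.

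**Figure D3:**
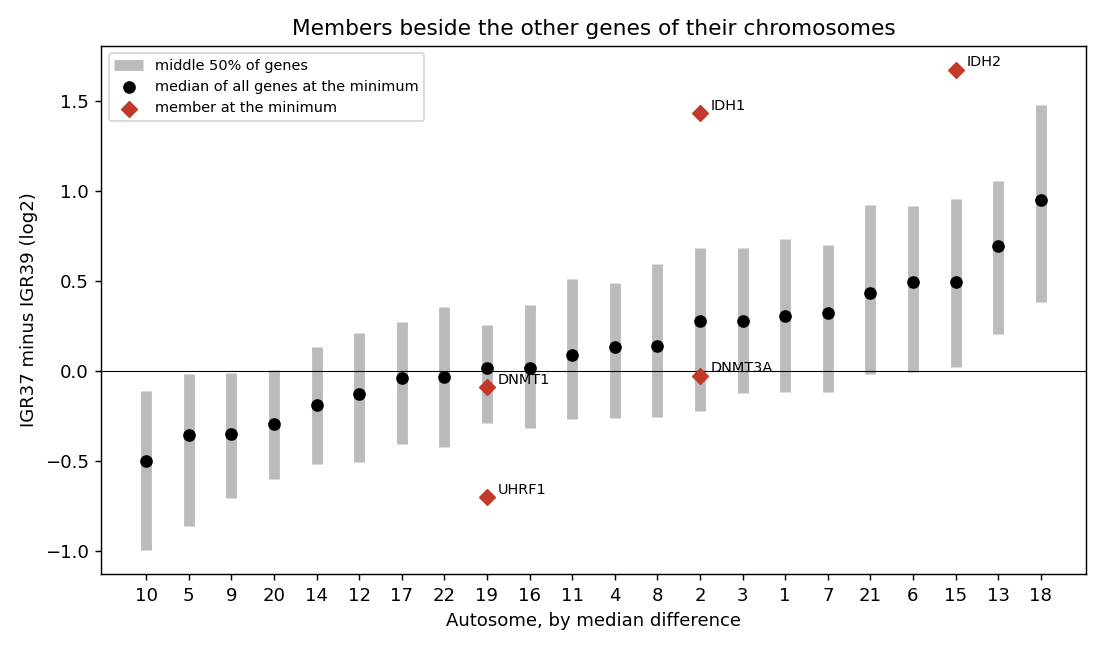
Difference between the lines (IGR37 minus IGR39, log2) for the genes at the minimum of each autosome, ordered by median (black points; grey bars, middle 50% of genes), with the 5 members at the minimum as red diamonds. IDH1 and IDH2 lie above the bars of chromosomes 2 and 15, DNMT1 and DNMT3A lie inside theirs, and UHRF1 lies below that of chromosome 19.

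The nearest genes varied around IDH1 and leaned one way around IDH2. Of the 10 nearest measured genes around IDH1, 6 were higher in IGR37, 3 of them by at least 2-fold, and 2 were at least 2-fold lower. Among them METTL21A, a protein methyltransferase gene next to CREB1, was at 7.55 in IGR37 and 5.54 in IGR39, and KLF7 was at 6.16 in IGR37 and 7.67 in IGR39. Around IDH2 all 10 were higher in IGR37, 4 of them by at least 2-fold, with differences from 0.05 to 1.68. Of all genes at the minimum, 76.2% were higher in IGR37 on chromosome 15 and 65.9% on chromosome 2. At least 2-fold higher were 23.2% on chromosome 15 and 13.4% on chromosome 2. At least 2-fold lower were 5.37% on chromosome 15 and 9.04% on chromosome 2. POLG, the mitochondrial DNA polymerase, was at 7.95 in IGR37 and 6.63 in IGR39, and BLM, a DNA helicase, was at 8.73 in IGR37 and 7.05 in IGR39. The medians of the 10 genes were 0.67 for both. Over 25 genes on each side, the medians were 0.14 around IDH1 and 0.70 around IDH2.

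**Figure D4:**
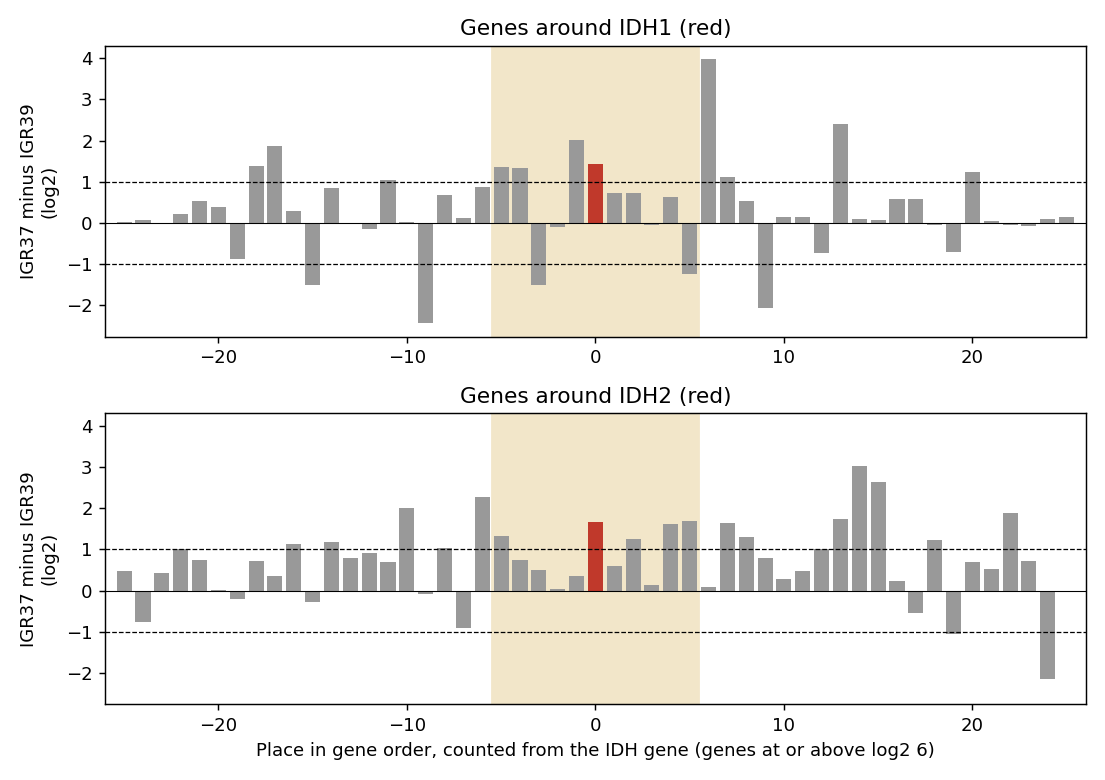
Difference between the lines (IGR37 minus IGR39, log2) for the measured genes on each side of IDH1 and IDH2 in gene order, with the IDH gene in red, the 5 nearest on each side shaded and the 2-fold limits dashed. Around IDH2, 41 of 50 genes were higher in IGR37, and around IDH1 34 of 50. The share of genes higher in IGR37 was 76.2% on chromosome 15, 65.9% on chromosome 2 and 54.5% over all genes.

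Other genes of the tricarboxylic acid cycle and of 2-oxoglutarate metabolism differed less than the IDH pair. Of 24 genes at the minimum, 1 passed the 2-fold limit upwards in IGR37, 0 passed it downwards and 23 lay within it. The shares over all genes were 11.4% upwards and 9.5% downwards. The median difference of the 24 was 0.32, against 0.07 for all genes. Of the 24, 17 were higher in IGR37, as were 54.5% of all genes. The gene just past the limit, with a difference of 1.03, was IDH3A, a subunit of the NAD-dependent isocitrate dehydrogenase. It stood at 8.75 in IGR37 and 7.72 in IGR39, with 1.61 on its second probe set at the minimum. No chromosome median was subtracted for IDH3A. Its partner subunits were IDH3B, at 9.18 in IGR37 and 8.82 in IGR39, and IDH3G, at 8.86 in IGR37 and 8.57 in IGR39. OGDH, which consumes 2-oxoglutarate, was at 7.05 in IGR37 and 7.15 in IGR39. SLC25A1, which exports citrate from the mitochondrion, was at 7.36 in IGR37 and 7.22 in IGR39. D2HGDH, which oxidises D-2-hydroxyglutarate, was under the minimum and at 5.40 in both lines.

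IDH1 and IDH2 also make NADPH, and so do the enzymes of another list. Of its 6 genes at the minimum, 1 passed the 2-fold limit upwards in IGR37 and 0 downwards, against 11.4% and 9.5% of all genes. Their median was 0.31. The gene past the limit was ME2, the mitochondrial malic enzyme, at 9.29 in IGR37 and 6.92 in IGR39. Its 3 probe sets gave differences of 2.37, 2.39 and 2.86. ME2 lies on chromosome 18, whose median of 0.95 was the highest of the autosomes.

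The DNA methyltransferases work with other proteins, and 12 such genes were at the minimum, with a median of 0.43. Of these, 2 passed the limit upwards in IGR37, 1 downwards and 9 lay within it. The shares over all genes were 11.4% upwards and 9.5% downwards. CDCA7L, a relative of the HELLS partner CDCA7, was at 8.53 in IGR37 and 6.56 in IGR39. EHMT2, a histone H3 methyltransferase, was at 6.98 in IGR37 and 5.76 in IGR39, but its other probe sets, at 5.10 and 5.41 in IGR37 and 4.98 and 5.55 in IGR39, were dim and differed little. HELLS, the remodelling ATPase that opens chromatin to the methyltransferases, was at 5.99 in IGR37 and 7.21 in IGR39 on its brightest probe set. A second HELLS probe set at the minimum stood at 6.35 in IGR37 and 6.27 in IGR39, so the call rests on the brightest alone. No chromosome median was subtracted for the genes of this list.

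Of the readers of methylated DNA, 9 were at the minimum, and all 9 lay within 2-fold, with a median of 0.26. Most genes did so too, as 21% of all 8501 genes passed the limit either way. UHRF2, the paralogue of UHRF1, stood at 7.27 in IGR37 and 7.97 in IGR39, a difference of -0.71. No chromosome median was subtracted for the readers, so the value is not set beside that of UHRF1. MBD2 was at 9.15 in IGR37 and 8.44 in IGR39, and MBD4, a glycosylase as well as a reader, at 7.84 in IGR37 and 8.07 in IGR39.

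Of 12 base excision and associated demethylation genes at the minimum, 2 passed the limit upwards in IGR37, 1 downwards and 9 lay within it, with a median of -0.23. With 21% of all genes past the limit, 3 of 12 is near the background. TDG, the glycosylase that removes the bases TET enzymes oxidise, stood at 6.38 in IGR37 and 6.26 in IGR39. PARP1, which marks DNA breaks, was at 9.31 in IGR37 and 8.04 in IGR39, and the repair polymerase POLB at 9.03 in IGR37 and 8.02 in IGR39. GADD45A, a stress protein tied to demethylation, was at 7.50 in IGR37 and 9.27 in IGR39.

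In the methyl donor cycle, which makes and recycles S-adenosylmethionine, 12 genes were at the minimum, with a median of 0.39. Of these, 2 passed the limit upwards in IGR37, 2 downwards and 8 lay within it. The shares over all genes were 11.4% upwards and 9.5% downwards. MAT2A, which makes S-adenosylmethionine, was at 9.58 in IGR37 and 9.62 in IGR39. AHCY, which clears the product of methylation, was at 9.77 in IGR37 and 9.51 in IGR39. The upward count was 0 after centring on housekeeping genes and 1 after removing a lowess trend. Chromosome medians were not subtracted for the genes of this list. MTR, methionine synthase, was at 7.44 in IGR37 and 6.32 in IGR39, and TYMS, thymidylate synthase, at 11.19 in IGR37 and 10.13 in IGR39. ADK, which removes adenosine, was at 7.85 in IGR37 and 9.14 in IGR39. NNMT, which spends S-adenosylmethionine on nicotinamide, was at 4.96 in IGR37 and 8.41 in IGR39, and its second probe set at the minimum was at 4.43 in IGR37 and 6.84 in IGR39. NNMT reached the minimum through IGR39 alone, so the size of its difference rests on a dim signal in IGR37.

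Germline genes that DNA methylation keeps silent in somatic cells were at background. Of the 14 measured, 0 reached the minimum, against 8501 of all 19775 genes. Their levels ran from 2.83 to 3.68 in IGR37 and from 2.97 to 3.81 in IGR39. DNA methylation was not measured, so its part in these low signals was not tested. DAZL, a germ cell RNA-binding protein gene, was at 2.87 in IGR37 and 2.98 in IGR39, and DDX4, a germ cell helicase gene, at 3.24 in IGR37 and 3.48 in IGR39.

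**Figure D5:**
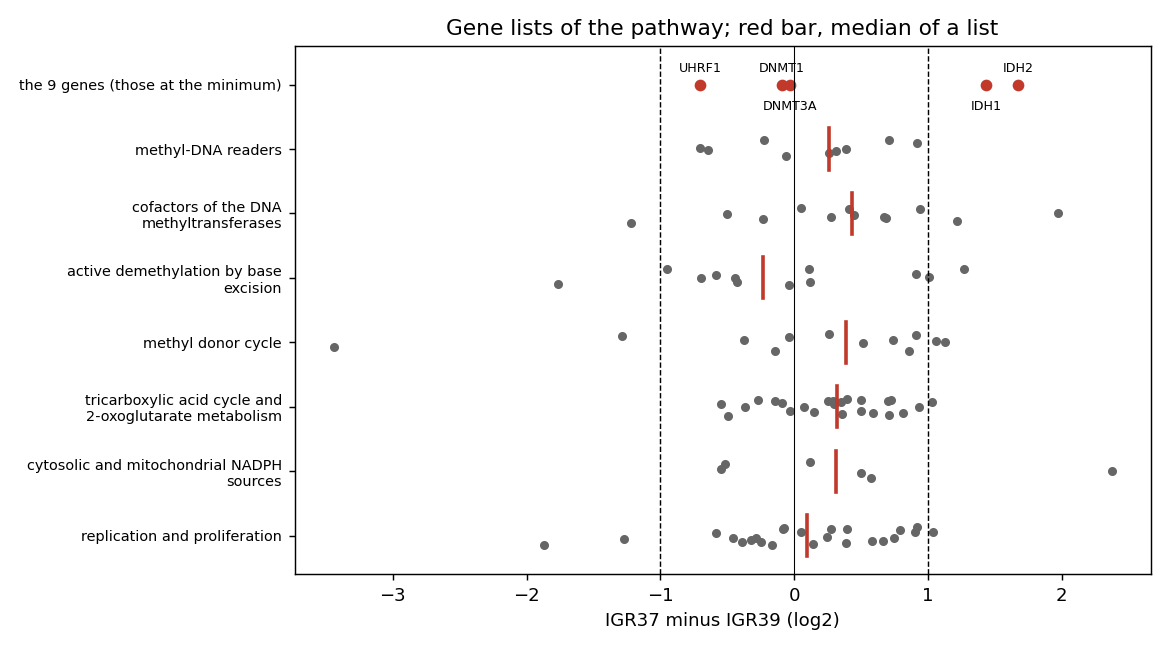
Differences between the lines (IGR37 minus IGR39, log2) for the 5 members at the minimum (top row) and for the genes at the minimum in 7 pathway lists (grey points, spread vertically for sight; red bars, list medians), with 2-fold limits dashed. The list medians lie between -0.23 and 0.43, and IDH1 and IDH2 lie past the upper limit.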

How the data were processed

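The authors deposited log2 expression levels per probe set, for which the submitters' processing notes name affy and RMA. Versions, and which arrays were normalised together, are not stated in the labels or notes. RMA makes the distributions of arrays alike and compresses low differences. Each array held 54675 probe sets, of which 24.3% in IGR37 and 23.9% in IGR39 reached log2 6. Symbols came from the platform annotation, updated through gene identifiers to a RefSeq table of GRCh38.p14, and 41037 of 41091 probe sets with 1 symbol matched. Only probe sets with 1 symbol were used. A gene took its probe set with the highest mean, and a level of log2 6 in the brighter line was the minimum for counts. No test was run, with 1 array per line. The members, the lists and the limits were chosen with earlier results of these data known. From each list, genes past 2-fold were named, with pathway genes next to a member. With 2 arrays no likeness of pattern was computed. A run on simulated data, with planted differences past the limit, checked only that the code applies the limit. Its values scattered less than real probe sets do, so it says nothing of how reliable the calls are. Alternatives were 3 minimum levels, other summaries of probe sets and 3 scalings, and a subtraction of chromosome medians chosen after seeing the data. Chromosome medians and the 25-gene neighbourhoods were also examined after seeing the data. Python 3.11.15, numpy 2.4.6, pandas 2.3.3, statsmodels 0.14.6 and matplotlib 3.10.9 were used.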

Additional observations from a re-analysis of the deposited data

How the results depend on the processing

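No paired analysis was possible because each line has 1 array. Across other probe set summaries and scalings, IDH1's difference ranged from 1.25 to 1.63, IDH2's from 1.49 to 1.70 and UHRF1's from -0.89 to -0.68. The count of 2 members at least 2-fold higher was 1 when probe sets with the suffix _x_at or _s_at were left out, because IDH2's remaining probe set is under the minimum although its difference was 1.60; that alternative leaves no value for DNMT1 or DNMT3B. Under every other alternative run the count of higher members was 2, and the count of lower members was 0 under all of them. Differences near zero changed sign: DNMT3A ranged from -0.21 to 0.17 and TET3 from -0.15 to 0.15. Subtracting the chromosome median gave 1.18 for IDH2. Centring on housekeeping genes moved the median of all genes by -0.20, and IDH1 and IDH2 were then 1.25 and 1.49. Of 128 recomputed list counts, 22 moved by more than 1.5 times; counts this small move with a single gene, and the count of 1 in the tricarboxylic acid list, IDH3A, was 0 with the lowess and housekeeping scalings, with the mean over probe sets and with those suffixes left out. The upward counts of 2 in the methyl donor and base excision lists were 0 and 1 with the housekeeping scaling and 1 and 1 with the lowess scaling. Dim probe sets limit what can be said of the TET genes and DNMT3B.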
